A study of Mus musculus with 16 samples.

Results

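Interferon-stimulated genes were followed by RNA-seq in 6DT1, a mammary cancer line from FVB/N1 mice. The set holds 44 genes listed by name, of the 25745 genes in the count table. It was found by gene symbol, and 43 of the 44 passed the filter on low counts that left 14445 genes for testing. The exception was Zbp1, a sensor of left-handed nucleic acid helices, which had 2 counts in library 14, 1 in library 12, 2 in library 8 and 0 in the other libraries.

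Each of the 4 groups had 4 libraries. Empty-vector cells treated with H2O2 were libraries 13 to 16, and untreated empty-vector cells were libraries 9 to 12. Lentivirus cells treated with H2O2 were libraries 5 to 8, and untreated lentivirus cells were libraries 1 to 4. Treatment was 1 µM hydrogen peroxide for 24 h. All cells carried a lentivirus, with CLIC4 (an oxidoreductase of the chloride intracellular channel family) in the lentivirus groups and with no insert in the empty-vector groups, per the design text. The labels conflict on genotype: the descriptions read CLIC4-Knockout for empty-vector samples and wildtype for lentivirus samples, a status that the design text leaves out. Whether a group's libraries come from separate cultures or from 1 clone is not in the labels, and its p-values therefore cover only library-to-library spread, which may be technical.

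Interferons are secreted proteins that bind receptors on the cell surface, and type I interferon signals through the kinases Jak1 and Tyk2. Type I interferon brings Stat2 and Irf9 into a complex, ISGF3, that binds a DNA element called the ISRE, whereas interferon-gamma acts through a GAS element. The genes switched on in this way bind viral RNA, tag proteins with ISG15, build GTPases that attack membranes of pathogens, or feed back on the pathway.

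Clic4 itself read 45.1, 41.8, 43.0 and 39.5 CPM (counts scaled by library total and TMM factor, as are all levels below that are not FPKM) in empty-vector cells with H2O2, against 249, 258, 230 and 234 CPM in lentivirus cells with H2O2. In untreated cells it read 41.5, 41.2, 138 and 44.7 CPM with the empty vector (libraries 9, 10, 11 and 12), against 225, 244, 222 and 223 CPM with the lentivirus. Each empty-vector library lay below every lentivirus library, and library 11 lay between the others and the lentivirus groups. The log2 change was -2.52 with H2O2 and -1.79 untreated, or -2.43 without library 11 (edgeR adjusted p = 1.78e-05, 0.000288 and 2.97e-18). Libraries held 47089156 to 61945199 counts. Library 11 stood apart: its correlation with the rest of its group over genes, on log2(CPM + 1), was at most 0.9258, whereas pairs of other libraries of a group reached at least 0.9978. It also held 500 counts of the epithelial adhesion gene Epcam and 59 of Cdh1, against 0 to 2 and 0 to 7 in the other libraries. Of the mammary epithelial markers, Krt8 and Krt18 were high in every library (371 to 632 and 84.9 to 384 CPM), while Krt5 and Krt14 stayed at 0 to 7 counts. Counts over the set are therefore given with all 16 libraries and without library 11, as are the log2 changes in untreated cells of the genes described singly. Every member called in a vector comparison with 16 libraries was called in the same direction without library 11 (18 of 18 under H2O2 and 21 of 21 untreated). Leaving it out moved the members' log2 changes between the vectors by at most 0.00415 under H2O2 and by up to 0.39 untreated.

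To show what the genes carry in front of their start, the 250 bases before the RefSeq start (GRCm38.p6, the mm10 build) are printed for 6 of them. Isg15 and Oas1a were higher in empty-vector cells, and Trim30a and Bst2 were lower. Ifit3 and Ifit3b are near-identical neighbours whose counted levels differed in empty-vector cells and were close in lentivirus cells. Capitals mark matches to the ISRE core, which is GAAA, any 2 bases and GAAA again, on either strand, and overlapping matches merge into one run. The windows are chr4:156200819-156201068 (minus strand), chr5:120907526-120907775 (minus), chr7:104465194-104465443 (minus), chr8:71537473-71537722 (minus), chr19:34583279-34583528 (plus) and chr19:34607707-34607956 (plus).
Isg15: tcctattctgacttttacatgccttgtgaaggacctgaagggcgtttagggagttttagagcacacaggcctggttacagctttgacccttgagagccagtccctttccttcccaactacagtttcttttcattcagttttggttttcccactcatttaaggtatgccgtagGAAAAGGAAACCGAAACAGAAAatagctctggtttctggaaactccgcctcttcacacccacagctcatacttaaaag
Oas1a: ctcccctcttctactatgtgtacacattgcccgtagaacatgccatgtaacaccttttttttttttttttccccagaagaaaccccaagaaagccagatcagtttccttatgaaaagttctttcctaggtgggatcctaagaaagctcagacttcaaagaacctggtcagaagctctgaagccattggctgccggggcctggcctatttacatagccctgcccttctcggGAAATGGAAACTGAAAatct
Trim30a: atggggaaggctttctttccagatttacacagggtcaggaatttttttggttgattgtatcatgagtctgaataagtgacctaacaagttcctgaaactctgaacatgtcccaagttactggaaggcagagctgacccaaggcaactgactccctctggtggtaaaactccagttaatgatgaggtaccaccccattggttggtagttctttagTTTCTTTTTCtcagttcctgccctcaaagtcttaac
Bst2: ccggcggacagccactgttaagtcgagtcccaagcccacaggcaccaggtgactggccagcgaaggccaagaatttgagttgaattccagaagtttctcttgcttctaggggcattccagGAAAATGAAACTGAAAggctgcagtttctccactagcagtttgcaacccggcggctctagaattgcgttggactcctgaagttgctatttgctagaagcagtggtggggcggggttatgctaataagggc
Ifit3: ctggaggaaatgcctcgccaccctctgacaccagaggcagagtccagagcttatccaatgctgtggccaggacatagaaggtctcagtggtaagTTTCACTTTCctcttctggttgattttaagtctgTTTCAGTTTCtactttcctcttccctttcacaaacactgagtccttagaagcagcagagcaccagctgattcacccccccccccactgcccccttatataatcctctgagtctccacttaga
Ifit3b: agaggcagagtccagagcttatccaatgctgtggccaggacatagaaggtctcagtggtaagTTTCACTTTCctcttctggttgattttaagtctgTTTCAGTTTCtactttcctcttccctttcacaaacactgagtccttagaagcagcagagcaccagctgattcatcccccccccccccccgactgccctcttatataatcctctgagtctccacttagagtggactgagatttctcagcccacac

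Isg15 had 3 overlapping matches and Oas1a and Bst2 had 2 each, all on the gene strand. Trim30a had 1 match, and Ifit3 and Ifit3b had 2 each, all read on the opposite strand, so that they appear as TTTC, 2 bases and TTTC. The 2 Ifit3 matches began 156 and 122 bases before the start, and the 2 Ifit3b matches 188 and 154 bases before it. The windows of this pair hold nearly the same bases, with the RefSeq start placed at different points, so these distances do not show moved motifs. A stretch just after the RefSeq start was found in 0 GENCODE transcripts of Ifit3b and of Bst2, and in 1 transcript of each of the others.

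Of the 44 genes, 34 had a window in the RefSeq table (250 bases before to 50 after the start), and 18 of these 34 (52.9%) held the ISRE core on either strand. Over all 27025 genes in the table the share was 3.99%. A stricter form, GAAAC, any base and GAAA, stood in 12 of the 34 (35.3%), against 0.792% of all genes, and every stricter match is also a match of the core. The GAS core TTCNNNGAA stood in 8 of the 34 (23.5%), against 9.55% of all genes. A match is a description of letters in the window and does not show that a factor binds there. Without library 11, the core stood in 7 of the 12 windows of genes higher with the empty vector in both comparisons and in 10 of the 16 windows of genes lower in both. With all 16 libraries these were 5 of 7 and 3 of 5.

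Levels between genes were compared per length, with the deposited FPKM. In empty-vector cells with H2O2, Ifi27, a mitochondrial and nuclear envelope protein, led with 346 ± 42.3 FPKM, and Bst2, tetherin, which holds budding virus at the cell surface, followed with 125 ± 8.31 FPKM (SD, n = 4). In lentivirus cells with H2O2 the same pair led with 235 ± 13.9 and 164 ± 3.86 FPKM (SD, n = 4). Isg15 (39.0 ± 4.75 FPKM), Trim25 (38.9 ± 0.549) and the GTPase Gbp2 (35.2 ± 0.734) came next with the empty vector, and Isg15 did not differ from either of the other two beyond its spread. Irf7 ranked 6 of 44 with the empty vector and 29 with the lentivirus, Dhx58 12 and 33, and Oasl1 15 and 32. Ifi44 moved the other way, ranking 38 with the empty vector and 24 with the lentivirus. Mx1, Oas2, Ifit3b and Zbp1 were below 1 FPKM on average in both of these groups except for Ifit3b in lentivirus cells, at 1.42 FPKM.

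**Figure D1:**
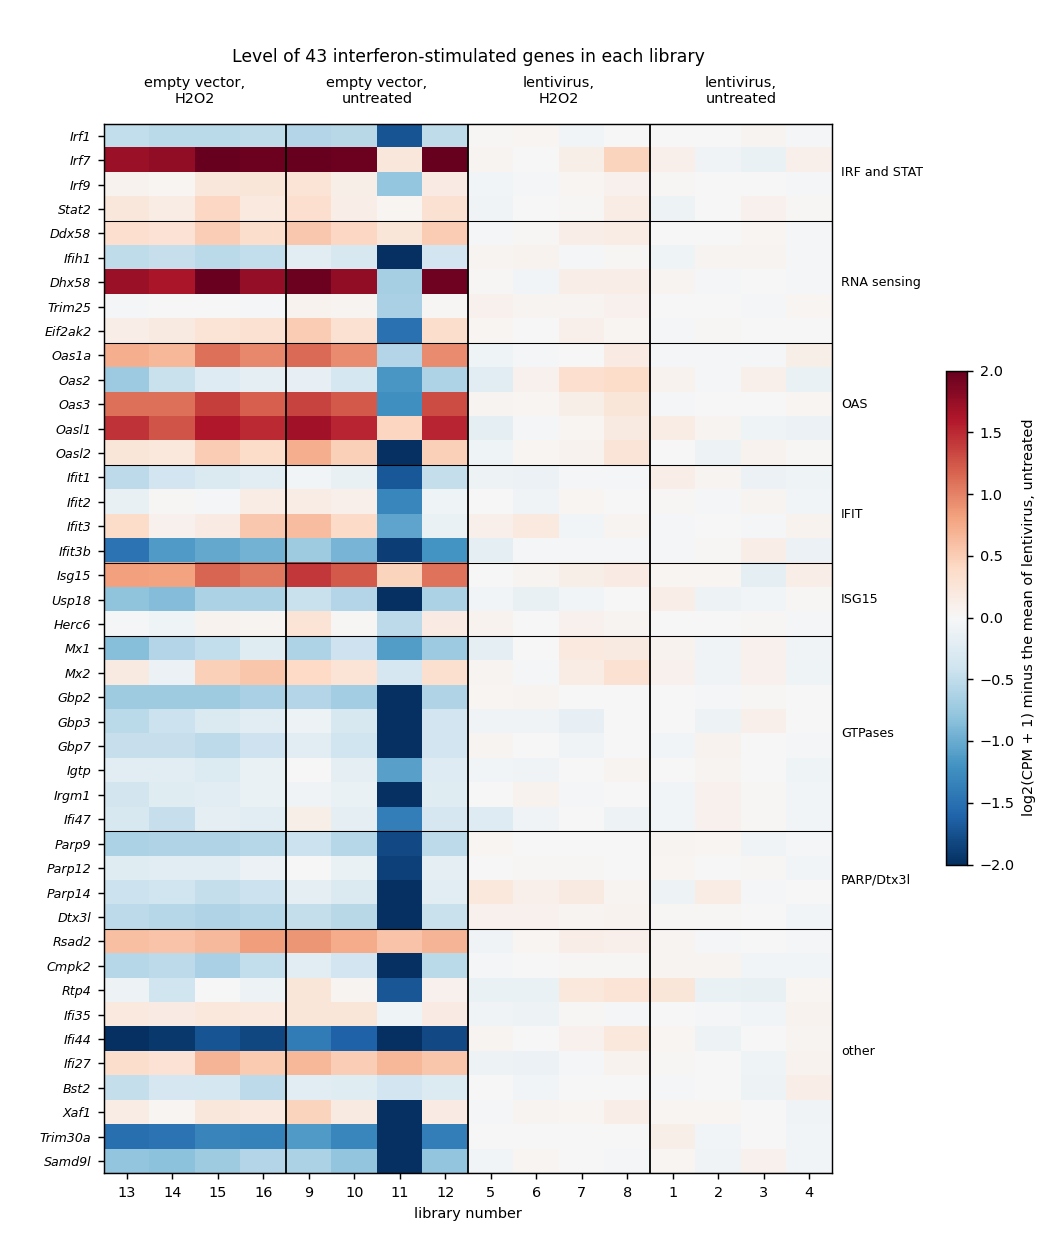
Level of the 43 genes that passed the filter in each of the 16 libraries, as log2(CPM + 1) minus the mean of the untreated lentivirus libraries, with colours capped at the ends of the scale. Columns are libraries in their 4 groups and rows are genes in blocks by role. The empty-vector columns hold both red and blue rows, the treated and untreated columns of a vector look alike, and library 11 lies below libraries 9, 10 and 12 in every row but that of Ifi27.

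The 2 vectors differed in many of these genes, in both directions. Under H2O2, 11 of the 43 were higher in empty-vector cells and 7 were lower (edgeR, adjusted p under 0.05). Over all genes tested, 22.1% were higher and 20% lower, or 42.1% in either direction, and the set's shares were near that background. The median log2 change, empty vector minus lentivirus, was -0.22 over the set and -0.01 over all genes. In untreated cells 9 were higher and 12 lower, beside 29% and 24.3% of all genes (53.3% in either direction), and the medians were -0.28 and 0.03.

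Without library 11 the spread between libraries was smaller and more genes passed. The biological coefficient of variation was 5.28%, against 23.1% with all 16 libraries. Under H2O2, 14 were then higher and 22 lower (36.6% and 37.2% of all genes, 73.8% together), and in untreated cells 18 were higher and 21 lower (37% and 37.3% of all genes, 74.4% together). The medians without library 11 were -0.22 under H2O2 and -0.11 untreated, against -0.01 and -0.02 over all genes. Groups did not overlap for 11 higher and 21 lower genes under H2O2 (34.6% and 34.8% of all genes, or 34.4% and 34.7% of those tested without library 11). In untreated cells this held for 6 higher and 18 lower genes with library 11 (24% and 25.6%), and for 16 and 18 without it (36% and 35.9%).

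With all 16 libraries 9 genes were higher with the empty vector in both comparisons (Irf7, Ddx58, Dhx58, Oas1a, Oas3, Oasl1, Isg15, Rsad2 and Ifi27) and 7 were lower in both (Irf1, Ifit3b, Mx1, Parp9, Ifi44, Bst2 and Trim30a). These counts were near the background, since 19.5% of all genes were higher in both and 16.3% lower in both. None of the 43 was called in opposite directions (0% of all genes). Without library 11 the counts were 14 and 21 (33.3% and 32.3% of all genes), again with 0 opposite (0.205%), and Ifit2, Ifi47 and Rtp4 were called in neither. The 2 comparisons use different libraries on both sides.

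**Figure D2:**
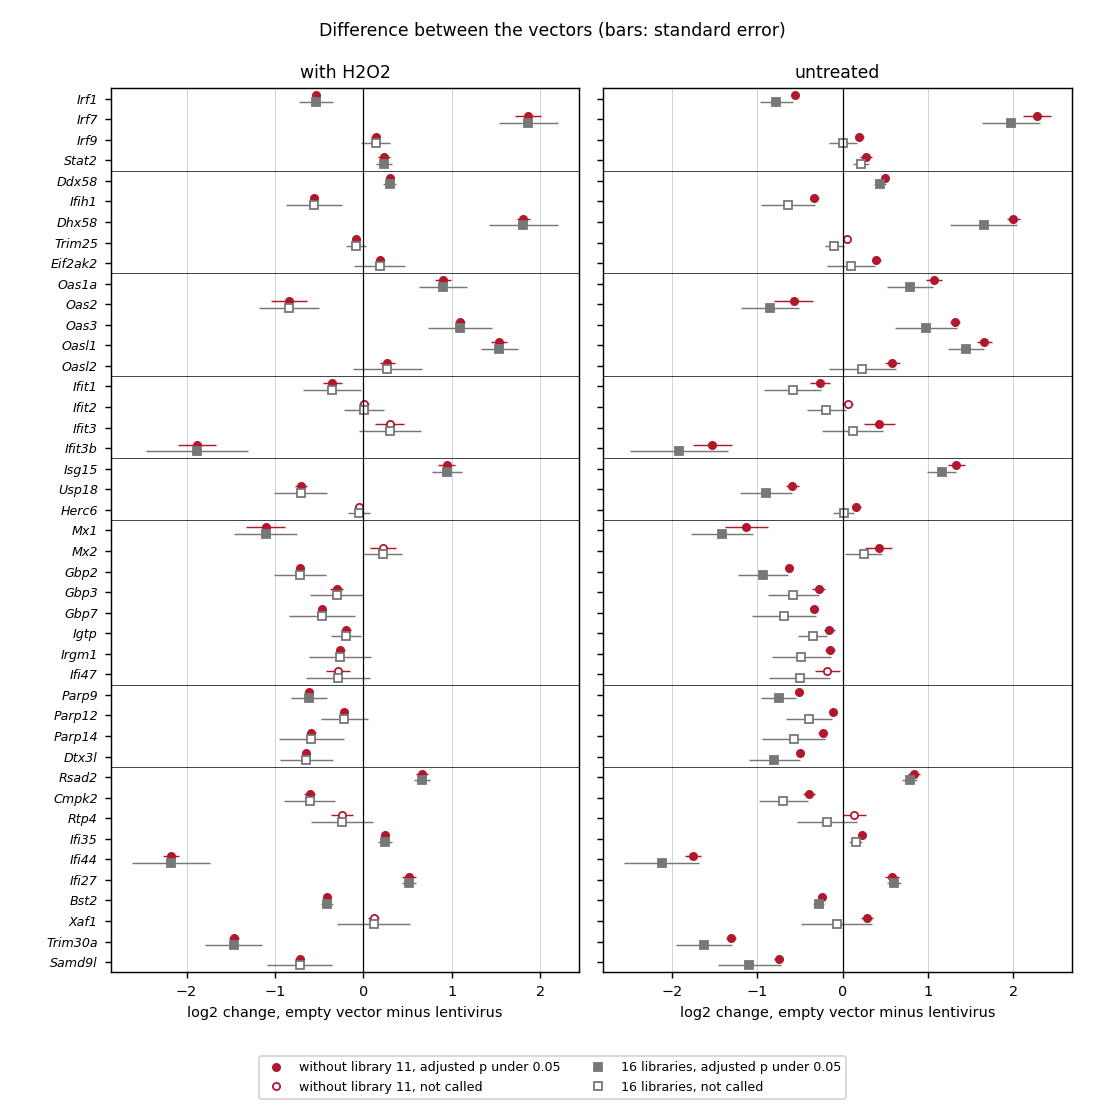
Log2 change, empty vector minus lentivirus, of the 43 genes with H2O2 (left) and untreated (right), with bars for the standard error. Red circles are fits without library 11 and grey squares fits with all 16 libraries, filled where the adjusted p was under 0.05. Ifi44 lies furthest to the left and Irf7 furthest to the right in both panels, and grey bars are longer than red ones for most genes.

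Summed levels of markers of other cell types differed between the vectors as well. Of 8 immune markers 5 were in the table and 2, Cd68 and Itgam, passed the filter, and their summed level was 228 to 258 CPM in empty-vector cells with H2O2, 223 to 374 CPM in untreated empty-vector cells (374 in library 11), 80.9 to 92.7 CPM in lentivirus cells with H2O2 and 77.6 to 83.0 CPM in untreated lentivirus cells. The defining immune gene Ptprc had 0 to 3 counts and Adgre1 0 to 1 in every library. All 4 endothelial markers were in the table, but only 2 passed the filter, so their sum does not describe each of them. They summed to 3.53 to 4.73 CPM in empty-vector cells with H2O2, 3.78 to 7.78 CPM in untreated empty-vector cells, 82.0 to 85.9 CPM in lentivirus cells with H2O2 and 79.9 to 85.2 CPM in untreated lentivirus cells. The sums of 4 fibroblast markers, of which 3 passed the filter, were 16.7 to 19.98, 18.3 to 20.6, 15.1 to 17.9 and 13.4 to 14.7 CPM in the same order of groups. The part of these markers in the results on interferon-stimulated genes was not tested. In bulk libraries fewer cells that express a gene and less of its RNA per cell cannot be told apart.

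Among the transcription factors, Irf7, the factor that amplifies interferon production, was higher with the empty vector. It read 37.6, 38.8, 56.3 and 44.4 CPM in empty-vector cells with H2O2, against 11.1, 10.7, 11.7 and 14.9 CPM in lentivirus cells with H2O2. Untreated, it read 58.6, 44.6, 12.6 and 52.1 CPM with the empty vector and 11.6, 10.1, 9.65 and 11.5 CPM with the lentivirus. No empty-vector library overlapped the lentivirus libraries of the same treatment, although library 11 came near them. This gave log2 changes of 1.87 with a standard error of 0.33 under H2O2 (edgeR adjusted p = 0.000368) and 1.97 with one of 0.33 untreated (edgeR adjusted p = 0.000217), and the untreated one was 2.28 without library 11. Irf7 (chromosome 7, 141262706 to 141266481, mm10) overlaps Phrf1 on the other strand, and, with no strandedness stated in the sources used here, reads of such overlapping genes cannot be told apart.

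Irf1, an activator of many genes of the interferon-gamma response, went the other way. Empty-vector cells with H2O2 had 42.3, 40.8, 41.1 and 41.7 CPM, and lentivirus cells with H2O2 had 60.7, 61.4, 57.8 and 60.3 CPM. Untreated, the values were 39.8, 40.6, 17.5 and 42.1 CPM with the empty vector and 60.1, 59.4, 62.4 and 58.1 CPM with the lentivirus. Within each vector the values were tight apart from library 11, and the groups did not overlap. The log2 changes were -0.53 (standard error 0.19, edgeR adjusted p = 0.0349) under H2O2 and -0.78 (standard error 0.19, edgeR adjusted p = 0.00364) untreated, which became -0.55 without library 11. The call under H2O2 was lost when any one of libraries 5 to 8 or 13 to 16 was left out (edgeR adjusted p = 0.0563 to 0.0767).

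Irf9 and Stat2, both part of ISGF3, differed less between the vectors. Irf9 read 31.7, 31.2, 35.5 and 35.9 CPM in empty-vector cells with H2O2, against 29.0, 29.8, 31.2 and 32.1 CPM in lentivirus cells with H2O2, and these groups overlapped. Untreated, it read 36.7, 32.9, 17.3 and 34.1 CPM with the empty vector and 30.6, 30.1, 30.5 and 29.6 CPM with the lentivirus, so that library 11 lay below and the other 3 above. Its log2 change was 0.14 under H2O2 and 0.00 untreated (edgeR adjusted p = 0.549 and 0.985), and without library 11 both differences passed at 0.14 and 0.20 (edgeR adjusted p = 0.0164 and 0.00259). Stat2 read 24.6, 23.2, 28.0 and 24.0 CPM in empty-vector cells with H2O2, against 19.7, 20.9, 21.1 and 23.2 CPM in lentivirus cells with H2O2. Untreated, it read 26.5, 23.0, 21.5 and 26.2 CPM with the empty vector and 19.4, 20.7, 22.3 and 21.2 CPM with the lentivirus. The Stat2 groups overlapped in both comparisons, and the untreated ones did not overlap without library 11. Its log2 change of 0.23 under H2O2 only just passed (standard error 0.09, edgeR adjusted p = 0.0496) and that of 0.22 untreated did not (edgeR adjusted p = 0.0533), while without library 11 both passed at 0.23 and 0.27 (edgeR adjusted p = 0.00345 and 0.00184). The Stat2 call under H2O2 was lost in 12 of the 16 fits that left out 1 library and held only without library 8, 9, 11 or 14. Irf9 overlaps Rnf31 on the same strand.

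Of the 6 listed sensors of foreign RNA and their helpers, 5 were tested and the 3 RIG-I-like receptors split. Dhx58 (LGP2, which tunes the other 2 receptors) read 35.4, 33.4, 42.3 and 36.4 CPM in empty-vector cells with H2O2, against 10.2, 9.61, 11.1 and 11.1 CPM in lentivirus cells with H2O2. Untreated, it read 41.9, 36.7, 5.96 and 41.6 CPM with the empty vector and 10.5, 9.80, 10.0 and 9.84 CPM with the lentivirus. All empty-vector libraries were higher except library 11, which lay below every lentivirus library. Dhx58 had log2 changes of 1.81 (standard error 0.39, edgeR adjusted p = 0.00174) under H2O2 and 1.65 (standard error 0.39, edgeR adjusted p = 0.0028) untreated, or 2.00 without library 11.

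Ddx58 (RIG-I, a sensor of RNA ends) was also higher, with 77.2, 74.5, 85.8 and 78.0 CPM in empty-vector cells with H2O2, against 59.5, 62.2, 66.9 and 67.9 CPM in lentivirus cells with H2O2. Untreated, it read 89.0, 81.8, 71.9 and 86.5 CPM with the empty vector and 60.5, 60.7, 62.4 and 60.0 CPM with the lentivirus. The groups did not overlap in either comparison, library 11 included. Ddx58 had log2 changes of 0.30 (standard error 0.07, edgeR adjusted p = 0.00381) under H2O2 and 0.43 (standard error 0.07, edgeR adjusted p = 0.000177) untreated, or 0.50 without library 11. Ifih1 (MDA5, a sensor of long double-stranded RNA) averaged 13.5 ± 0.362 CPM in empty-vector cells with H2O2 and 19.9 ± 0.728 CPM in lentivirus cells with H2O2 (SD, n = 4 each), without overlap. Its log2 changes were -0.56 and -0.64 with 16 libraries (edgeR adjusted p = 0.177 and 0.0988), and it was called lower without library 11, at -0.56 under H2O2 and -0.33 untreated (edgeR adjusted p = 3.03e-09 and 1.31e-05). Eif2ak2 (PKR, a kinase that halts translation) was called higher only without library 11, by 0.18 and 0.40. Trim25, the ubiquitin ligase that activates RIG-I, stayed within 197 to 217 CPM in all libraries but library 11 (130 CPM). edgeR called it only without library 11 and under H2O2, with a log2 change of -0.08 (edgeR adjusted p = 0.00719), while its untreated change was 0.05 there (edgeR adjusted p = 0.0996). DESeq2 without library 11 called it in both vector comparisons and in the difference of the H2O2 responses.

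The oligoadenylate synthetase family, which senses viral double-stranded RNA, held 3 genes called higher with the empty vector under H2O2 and 0 called lower, of 5 (22.1% and 20% of all genes). Without library 11, 4 were called higher and 1, Oas2, lower in both comparisons (36.6% and 37.2% of all genes under H2O2, 37% and 37.3% untreated). Oasl1, a family member without the enzyme activity, read 29.5, 25.9, 32.9 and 30.6 CPM in empty-vector cells with H2O2, against 8.77, 9.95, 10.6 and 11.6 CPM in lentivirus cells with H2O2. Untreated, it read 34.9, 31.2, 14.1 and 31.2 CPM with the empty vector and 11.5, 10.6, 9.55 and 9.39 CPM with the lentivirus. No library of one vector reached the other, and the log2 changes were 1.54 (standard error 0.21, edgeR adjusted p = 3.64e-05) under H2O2 and 1.44 (standard error 0.21, edgeR adjusted p = 6.09e-05) untreated, or 1.66 without library 11.

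Oas3 read 99.2, 99.5, 121 and 106 CPM in empty-vector cells with H2O2, against 47.8, 47.3, 50.1 and 54.4 CPM in lentivirus cells with H2O2. Untreated, it read 119, 109, 19.0 and 115 CPM with the empty vector and 44.9, 45.4, 46.4 and 47.0 CPM with the lentivirus. Library 11 alone lay below the lentivirus range. Oas3 had log2 changes of 1.09 (standard error 0.37, edgeR adjusted p = 0.0258) under H2O2 and 0.98 (standard error 0.36, edgeR adjusted p = 0.0354) untreated, or 1.32 without library 11. Its call was lost without library 5, 6, 7 or 15 under H2O2 (edgeR adjusted p = 0.0546 to 0.0609), and without any one of libraries 1 to 4, 9, 10 and 12 untreated (edgeR adjusted p = 0.0661 to 0.0883).

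Neighbouring family members differed in direction. Oas2 (chromosome 5, 120730333 to 120749853), Oas3 (120753098 to 120777661) and Oas1a (120896256 to 120907521) lie in one stretch. Oas1a was higher by 0.90 under H2O2 and 0.79 untreated (edgeR adjusted p = 0.0143 and 0.024), and the untreated change was 1.07 without library 11. The untreated Oas1a call was lost without any one of libraries 1, 2, 3, 9, 10 and 12 (edgeR adjusted p = 0.0528 to 0.0726). Oas2, which read 0.924, 1.33, 1.64 and 1.78 CPM in empty-vector cells with H2O2, against 1.73, 2.36, 3.02 and 3.07 CPM in lentivirus cells with H2O2, had log2 changes of -0.84 under H2O2 (edgeR adjusted p = 0.0586) and -0.85 untreated (edgeR adjusted p = 0.0491). Without library 11 Oas2 was called lower in both, at -0.84 and -0.57 (edgeR adjusted p = 0.0013 and 0.0312). With the other libraries left out in turn, the untreated call held only without library 5, 9, 10 or 13. Untreated, it read 1.83, 1.49, 0.415 and 1.06 CPM with the empty vector and 2.34, 2.08, 2.39 and 1.90 CPM with the lentivirus. The Oas2 groups overlapped under H2O2 and did not overlap untreated, and at 16 to 193 counts it was among the low genes of the set. Oasl2 read 32.0, 31.2, 38.5 and 34.8 CPM in empty-vector cells with H2O2, against 25.2, 27.6, 28.1 and 32.1 CPM in lentivirus cells with H2O2. Untreated, it read 44.9, 37.6, 5.60 and 37.6 CPM with the empty vector and 27.1, 24.9, 28.1 and 27.1 CPM with the lentivirus. The treated groups overlapped and library 11 lay below all other libraries, and Oasl2 was called higher only without library 11, with log2 changes of 0.27 and 0.58 (edgeR adjusted p = 0.00699 and 1.95e-05).

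The IFIT genes, which bind viral RNA that lacks the host's cap marks, sit together on chromosome 19. Ifit3b (34607970 to 34613401) averaged 0.676 ± 0.251 CPM in empty-vector cells with H2O2 and 2.50 ± 0.189 CPM in lentivirus cells with H2O2 (SD, n = 4 each). It had 18, 39, 49 and 51 counts in empty-vector cells with H2O2 and 118, 143, 150 and 162 counts in lentivirus cells with H2O2, without overlap. Ifit3b had log2 changes of -1.88 (standard error 0.58, edgeR adjusted p = 0.0163) under H2O2 and -1.91 (standard error 0.58, edgeR adjusted p = 0.0125) untreated, or -1.53 without library 11. The call under H2O2 was lost without library 13 (edgeR adjusted p = 0.0536).

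Ifit3 (34583531 to 34588731) is a near copy of Ifit3b. Their longest coding transcripts were identical at 98.0% of 1697 aligned bases, and 99.2% of 260 aligned promoter bases matched, so reads may be split between them in ways that make each count uncertain. Ifit3 itself averaged 3.47 ± 0.659 CPM in empty-vector cells with H2O2 and 2.82 ± 0.285 CPM in lentivirus cells with H2O2 (SD, n = 4 each), with a log2 change of 0.30 (edgeR adjusted p = 0.542). Untreated, it was called higher only without library 11, at 0.43 (edgeR adjusted p = 0.0402). Summed, the pair gave 4.14 ± 0.731 CPM in empty-vector cells with H2O2 and 5.32 ± 0.294 CPM in lentivirus cells with H2O2 (SD, n = 4 each). Untreated, the sum was 4.44 ± 1.47 CPM in libraries 9, 10 and 12 (3.52 ± 2.20 CPM with library 11) and 5.30 ± 0.190 CPM with the lentivirus. The values of the sum overlapped between the vectors in both comparisons. Ifit1 was called lower only without library 11, with log2 changes of -0.35 and -0.27, and Ifit2 had log2 changes of 0.00 and -0.19 (0.01 and 0.06 without library 11).

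Isg15, the ubiquitin-like tag, was higher with the empty vector, while Usp18, the protease that removes the tag and restrains the receptor, was lower where it passed. Isg15 read 18.4, 18.2, 23.6 and 21.7 CPM in empty-vector cells with H2O2, against 9.88, 10.4, 11.0 and 11.3 CPM in lentivirus cells with H2O2. Untreated, it read 28.4, 24.8, 14.0 and 22.4 CPM with the empty vector and 10.3, 10.3, 8.56 and 11.0 CPM with the lentivirus. The groups were apart in both comparisons, library 11 included. Isg15 had log2 changes of 0.94 (standard error 0.17, edgeR adjusted p = 0.000412) under H2O2 and 1.16 (standard error 0.17, edgeR adjusted p = 6.54e-05) untreated, or 1.33 without library 11. Usp18 averaged 10.7 ± 0.968 CPM in empty-vector cells with H2O2 and 17.5 ± 0.753 CPM in lentivirus cells with H2O2 (SD, n = 4 each). Its log2 change was -0.71 under H2O2 (edgeR adjusted p = 0.0751) and -0.89 untreated (edgeR adjusted p = 0.0239), and without library 11 both passed, at -0.71 and -0.59. The untreated Usp18 call was lost without library 1 (edgeR adjusted p = 0.055). Herc6, the mouse ligase that attaches the tag, had log2 changes of -0.05 and 0.01, and 0.16 untreated without library 11 (edgeR adjusted p = 0.00631).

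**Figure D3:**
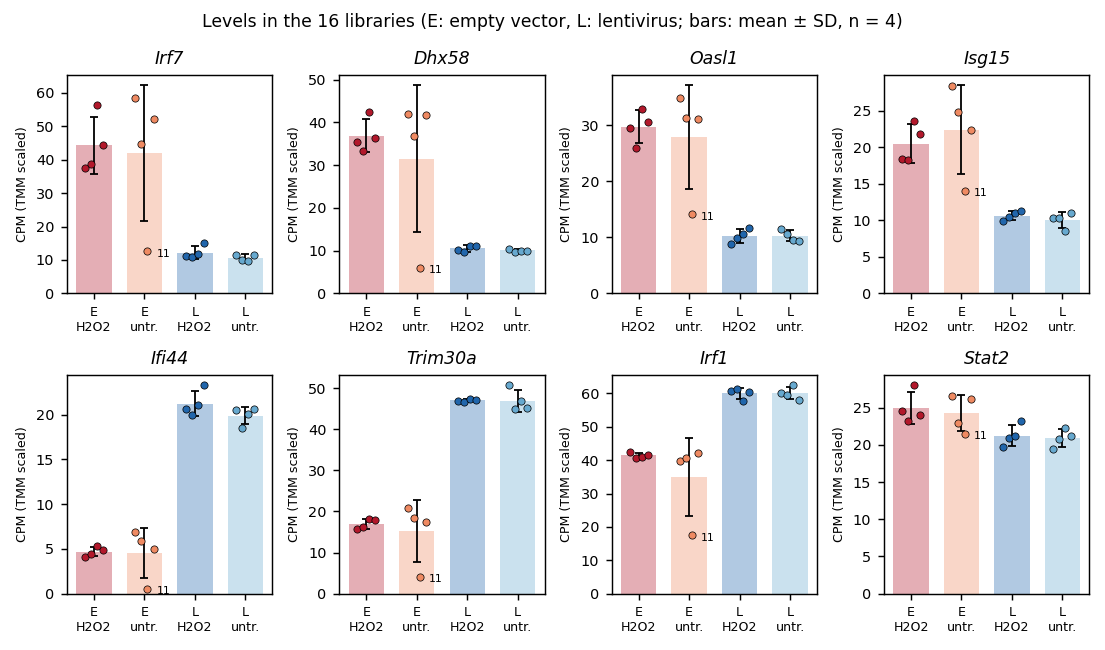
CPM of 8 genes in each library, with points for libraries, bars for the mean and whiskers for the SD of 4 libraries (E, empty vector; L, lentivirus). Irf7, Dhx58, Oasl1 and Isg15 stand higher in the empty-vector groups, Ifi44, Trim30a and Irf1 stand lower, and library 11 is the lowest point of its group in every panel.

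Among the 8 GTPases, 0 were called higher and 1, Mx1, was called lower under H2O2 with 16 libraries (22.1% and 20% of all genes). Without library 11, 0 were called higher and 6 lower (36.6% and 37.2% of all genes). Mx1, which blocks virus replication, read 0.417, 0.708, 0.805 and 1.15 CPM in empty-vector cells with H2O2, against 1.26, 1.57, 1.93 and 1.88 CPM in lentivirus cells with H2O2. Untreated, it read 0.670, 0.913, 0.181 and 0.539 CPM with the empty vector and 1.68, 1.43, 1.70 and 1.42 CPM with the lentivirus. The groups did not overlap, at 7 to 118 counts a library. Mx1 had log2 changes of -1.11 (standard error 0.36, edgeR adjusted p = 0.0211) under H2O2 and -1.41 (standard error 0.36, edgeR adjusted p = 0.00498) untreated, or -1.13 without library 11. The Mx1 call under H2O2 was lost without library 7, 8, 13 or 14 (edgeR adjusted p = 0.0532 to 0.0656). Mx2, annotated as a polymorphic pseudogene on the same chromosome, read 3.42, 2.57, 4.42 and 4.70 CPM in empty-vector cells with H2O2, against 3.03, 2.83, 3.30 and 3.80 CPM in lentivirus cells with H2O2, with overlap and a log2 change of 0.22 (edgeR adjusted p = 0.448). Untreated, Mx2 read 4.11, 3.70, 2.07 and 3.83 CPM with the empty vector and 3.11, 2.70, 3.11 and 2.65 CPM with the lentivirus, and it was called higher there without library 11 (log2 change 0.42, edgeR adjusted p = 0.0228).

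Guanylate-binding proteins and immunity-related GTPases, which gather at the vacuoles of pathogens, were lower as far as they passed. Gbp2 averaged 78.4 ± 1.60 CPM in empty-vector cells with H2O2 and 129 ± 2.94 CPM in lentivirus cells with H2O2 (SD, n = 4 each). The Gbp2 log2 change was -0.72 under H2O2 (edgeR adjusted p = 0.0633) and -0.93 untreated (edgeR adjusted p = 0.0163), or -0.63 without library 11, where the one under H2O2 passed as well (edgeR adjusted p = 2.27e-14). Without library 11 Gbp3, Gbp7, Igtp and Irgm1 were called lower in both comparisons, with log2 changes of -0.15 to -0.47, whereas Ifi47, with -0.29 and -0.18, was called in neither. Gbp3 and Gbp7 were identical at 78.9% of 1839 aligned bases.

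Parp9, Parp12, Parp14 and Dtx3l, ADP-ribosylating enzymes and the ubiquitin ligase partner of Parp9, had log2 changes below 0 in both comparisons. Parp9 averaged 61.9 ± 1.15 CPM in empty-vector cells with H2O2 and 95.1 ± 1.30 CPM in lentivirus cells with H2O2 (SD, n = 4 each). Its log2 changes were -0.62 (edgeR adjusted p = 0.0249) under H2O2 and -0.75 (edgeR adjusted p = 0.00733) untreated, or -0.51 without library 11, and the call under H2O2 was lost without library 5, 13, 14, 15 or 16 (edgeR adjusted p = 0.0506 to 0.0572). Dtx3l overlaps Parp9 on the opposite strand of chromosome 16, so their counts may share reads, and its changes were -0.65 (edgeR adjusted p = 0.101) and -0.80 (edgeR adjusted p = 0.0369), the second of which was not called without library 1, 2, 3 or 4 (edgeR adjusted p = 0.0591 to 0.068). Without library 11 all 4 were called lower in both comparisons, beside 32.3% of all genes. Their log2 changes were -0.22 to -0.64 under H2O2 and -0.11 to -0.51 untreated. In the same fits Parp14 had -0.59 and -0.23.

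Ifi44, an interferon-induced protein of little-known function in mouse, had the largest change of the set with all 16 libraries. It read 4.07, 4.47, 5.29 and 4.91 CPM in empty-vector cells with H2O2, against 20.7, 19.9, 21.1 and 23.3 CPM in lentivirus cells with H2O2. Untreated, it read 6.90, 5.83, 0.544 and 4.95 CPM with the empty vector and 20.5, 18.5, 20.1 and 20.6 CPM with the lentivirus. The highest empty-vector library stayed far below the lowest lentivirus library. These are log2 changes of -2.18 (standard error 0.44, edgeR adjusted p = 0.00102), which is 4.53-fold lower, under H2O2 and -2.12 (standard error 0.44, edgeR adjusted p = 0.00111) untreated, or -1.75 without library 11.

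Trim30a, a restrainer of innate signalling in mouse, read 15.8, 16.2, 18.2 and 17.8 CPM in empty-vector cells with H2O2, against 46.8, 46.6, 47.4 and 47.2 CPM in lentivirus cells with H2O2. Untreated, it read 20.9, 18.4, 4.04 and 17.4 CPM with the empty vector and 50.7, 45.0, 46.9 and 45.1 CPM with the lentivirus. The groups were far apart. Trim30a had log2 changes of -1.47 (standard error 0.32, edgeR adjusted p = 0.00189) under H2O2 and -1.62 (standard error 0.32, edgeR adjusted p = 0.000799) untreated, or -1.31 without library 11.

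Rsad2 (viperin, which makes a chain-terminating nucleotide) and Cmpk2 (a mitochondrial nucleotide kinase) start next to each other on chromosome 12 and run apart. Rsad2 (26442746 to 26456452) read 14.4, 14.0, 14.8 and 17.0 CPM in empty-vector cells with H2O2, against 8.62, 9.39, 10.0 and 9.87 CPM in lentivirus cells with H2O2. Untreated, it read 17.6, 15.9, 14.0 and 15.2 CPM with the empty vector and 9.46, 8.91, 9.05 and 8.96 CPM with the lentivirus. No libraries overlapped, and the log2 changes were 0.67 (standard error 0.09, edgeR adjusted p = 2.9e-05) and 0.79 (standard error 0.09, edgeR adjusted p = 5.76e-06), the untreated one being 0.84 without library 11. Cmpk2 (26469204 to 26479837) had changes of -0.61 and -0.69 (edgeR adjusted p = 0.108 and 0.0565), and without library 11 it was called lower in both, at -0.61 and -0.40 (edgeR adjusted p = 5.34e-08 and 3.72e-05).

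Ifi27 read 189, 180, 237 and 212 CPM in empty-vector cells with H2O2, against 138, 136, 144 and 154 CPM in lentivirus cells with H2O2. Untreated, it read 235, 209, 234 and 217 CPM with the empty vector and 150, 146, 139 and 156 CPM with the lentivirus. It was the exception in library 11, which lay within the range of its group. Ifi27 had log2 changes of 0.51 (standard error 0.08, edgeR adjusted p = 0.000126) and 0.60 (standard error 0.08, edgeR adjusted p = 3.04e-05), and 0.58 untreated without library 11. Bst2 read 67.2, 74.0, 73.0 and 64.7 CPM in empty-vector cells with H2O2, against 93.5, 90.5, 93.3 and 94.0 CPM in lentivirus cells with H2O2. Untreated, it read 80.9, 79.5, 71.6 and 77.3 CPM with the empty vector and 91.6, 93.6, 87.6 and 103 CPM with the lentivirus. The Bst2 groups did not overlap, and the log2 changes were -0.41 (standard error 0.06, edgeR adjusted p = 0.00011) and -0.28 (standard error 0.06, edgeR adjusted p = 0.00223), or -0.24 untreated without library 11.

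The remaining effectors were Ifi35, Samd9l, Xaf1 and Rtp4. Ifi35 was called higher under H2O2 by 0.25 (edgeR adjusted p = 0.0179; 0.0572 without library 6), and without library 11 in both comparisons, at 0.25 and 0.23. Samd9l, an inhibitor of translation, was called lower untreated with a log2 change of -1.09 (edgeR adjusted p = 0.0242) or -0.75 without library 11. Xaf1, a promoter of cell death, read 14.6, 13.5, 15.6 and 15.2 CPM in empty-vector cells with H2O2, against 12.8, 13.7, 13.4 and 14.5 CPM in lentivirus cells with H2O2. Untreated, it read 18.2, 15.0, 1.81 and 14.9 CPM with the empty vector and 13.5, 13.5, 13.1 and 12.4 CPM with the lentivirus, so that library 11 lay below all other libraries. It had log2 changes of 0.11 and -0.07 (edgeR adjusted p = 0.856 and 0.893), and the untreated one was 0.29 without library 11 and then passed (edgeR adjusted p = 0.00113). Rtp4, a chaperone of receptors, had -0.24 and -0.19 (0.14 untreated without library 11) and was not called in any of these fits.

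H2O2 moved these genes little. In empty-vector cells edgeR with 16 libraries called 0 of all 14445 genes (0% in each direction), with 2120 genes, 1 of them in the set, at an unadjusted p under 0.05, and DESeq2 called 38 genes higher and 20 lower, 0 of them in the set. The set's log2 changes, H2O2 minus untreated, were above 0 for 36 of 43, while 47.3% of all genes were below 0. The median was 0.13 over the set and 0.02 over all genes. In the set, 0 genes had groups that did not overlap (3.25% of all genes higher, 3.68% lower). Without library 11, which belongs to the untreated side, the direction turned: 40 of 43 were below 0, against 55.9% of all genes, and the median was -0.12, against -0.01 over all genes. edgeR then still called 0 of the 43 (0.123% of all genes higher and 0.116% lower), with a smallest adjusted p of 0.0714 for Parp14. At an unadjusted edgeR p under 0.05 stood 19 of the 43, all of them lower, beside 1994 of all 14602 genes in either direction. The count over all genes is not split by direction here, so it is not a like background for the 19.

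The genes Trim25, Parp9, Ifih1, Rtp4, Parp14, Gbp7 and Bst2 were lower in all treated empty-vector libraries than in libraries 9, 10 and 12 (7 of 43, beside 7.27% of all genes), and 0 were higher in all of them (5.5% of all genes). Ifih1 read 13.5, 13.9, 13.0 and 13.6 CPM with H2O2, against 16.5, 15.3 and 14.7 CPM in untreated libraries 9, 10 and 12. Parp14 read 35.4, 36.2, 34.3 and 35.3 CPM with H2O2, against 42.5, 39.2 and 41.5 CPM untreated. Library 11 lay far below both groups for these 2 genes, at 3.29 and 6.45 CPM. Without library 11 their log2 changes were -0.20 (standard error 0.05, edgeR adjusted p = 0.0965) and -0.22 (standard error 0.05, edgeR adjusted p = 0.0714), and that of Bst2 was -0.18 (standard error 0.05, edgeR adjusted p = 0.0965). DESeq2 without library 11 called these 3 genes lower (1.34% of all genes), as an alternative chosen after the data were seen. Of the others nearest to a call with 16 libraries, Bst2 had -0.15 and an unadjusted p of 0.035, while Ifi27 (-0.13), Irf1 (0.24) and Mx1 (0.39) had edgeR adjusted p = 0.405, 0.487 and 0.533.

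The median also moved with library 9. Among libraries 9, 10 and 12 it had the highest level of 40 of the 43 genes, while over all genes it was highest for 31.2%. With libraries 9 and 11 both left out, 34 of 43 were below 0 (56% of all genes) and the median was -0.07, against -0.01 over all genes. Leaving out library 11 together with any other empty-vector library in turn gave 37 to 41 of 43 below 0 (53.4% to 56.7% of all genes) and medians of -0.08 to -0.16. In each of these 7 fits edgeR called 0 of the set. Other groups had leading libraries as well: library 14 had the lowest level of 21 of the 43 in its group (21.7% of all genes), libraries 15 and 16 the highest of 18 and 19 (23% and 29.6%), and library 8 the highest of 21 (22.4%). Irf7 shows this, with 56.3 CPM in library 15 and 37.6 CPM in library 13, both treated empty-vector libraries.

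**Figure D4:**
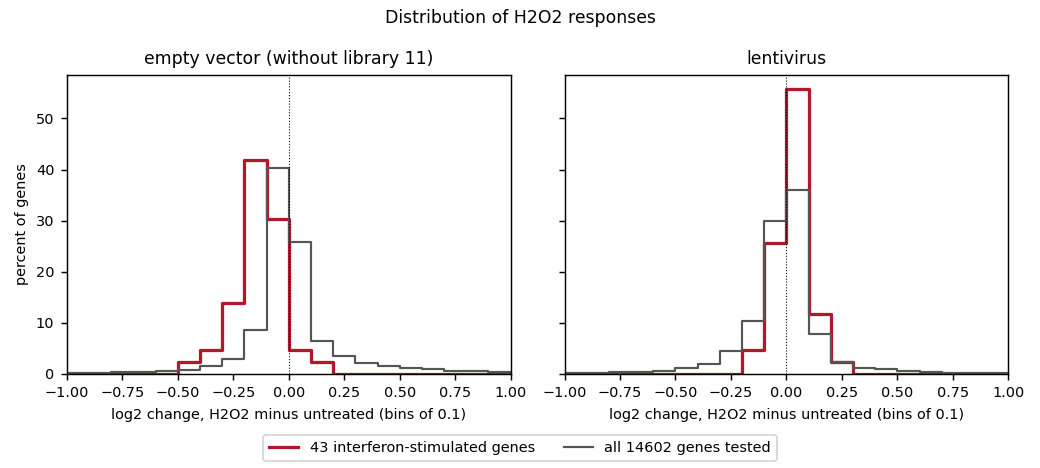
Share of genes by log2 change, H2O2 minus untreated, in bins of 0.1, for the 43 interferon-stimulated genes (red) and all 14602 genes tested without library 11 (grey). In empty-vector cells (left, without library 11) the red curve lies to the left of 0, with 40 of 43 below it, and in lentivirus cells (right) its peak is just above 0.

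In lentivirus cells, H2O2 gave 30 of 43 log2 changes above 0, while 49.8% of all genes were below 0. The median was 0.02 over the set and 0.00 over all genes. With 16 libraries edgeR called 0 of all genes (0% in each direction), with 255 genes and 0 of the set at an unadjusted p under 0.05. DESeq2 called 0 higher and 1 lower, 0 of them in the set. Trim25, Oas3 and Dtx3l were higher in all treated than in all untreated libraries (3 of 43, beside 4.6% of all genes), and 0 were lower in all of them (6.62%); over the genes tested without library 11 these shares were 4.55% and 6.55%. Oas3 read 47.8, 47.3, 50.1 and 54.4 CPM with H2O2, against 44.9, 45.4, 46.4 and 47.0 CPM untreated, a log2 change of 0.12 (standard error 0.36, edgeR adjusted p = 1). The 4 genes with the smallest p were Ddx58 (0.07), Mx2 (0.16), Oas2 (0.23) and Rsad2 (0.06), each with an edgeR adjusted p = 1. Library 11 is in neither group of this comparison, but it widens the spread that the groups share. Without it edgeR again called 0 genes, with 2135 genes and 3 of the set at an unadjusted p under 0.05. DESeq2 without library 11, chosen after the data were seen, called 67 genes higher and 210 lower (0.459% and 1.44%), 0 of them in the set.

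The difference of the responses, empty vector minus lentivirus, was called for 0 genes by edgeR with 16 libraries (0% in each direction; 859 genes and 0 of the set at an unadjusted p under 0.05), and DESeq2 called 1 higher and 16 lower, 0 of them in the set. The set's median was 0.11, against 0.03 over all genes, with 11 of 43 below 0 (47% of all genes). Without library 11, 39 of 43 differences were below 0 (50.4% of all genes), with a median of -0.15, against -0.00 over all genes. In that fit edgeR called 1 of the 43, Parp14, lower (0.0685% of all genes higher and 0.123% lower). The Parp14 difference was -0.35 (standard error 0.07, edgeR adjusted p = 0.0477), from -0.22 in empty-vector and 0.14 in lentivirus cells. Its lentivirus levels were 55.9, 51.9, 54.6 and 49.996 CPM with H2O2, against 44.8, 53.6, 46.6 and 48.2 CPM untreated, which overlap. With library 9 left out as well, the difference was -0.33 and its edgeR adjusted p = 0.127. With library 14 left out in its place it was called again (edgeR adjusted p = 0.0384), and in none of the other 5 such fits (edgeR adjusted p = 0.0547 to 0.108).

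Library 11 had low levels of nearly all of these genes. The median over the 43 was 25.5% of the mean of libraries 9, 10 and 12, while over all 14409 genes with counts in those libraries it was 89.5%, with a lower decile of 27.5% and an upper decile of 290%. Library 11 was below each of libraries 9, 10 and 12 for 42 of the 43, against 50.8% of all genes tested. It was below 0.5 of their mean for 32 of 43 (26.2% of all genes), below 0.25 for 21 (8.56%) and below 0.125 for 3 (3.88%).

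The lowest values were Ifit3b, with 0 counts in library 11, which allows up to 0.0778 CPM (3 counts, counting error only), and 71, 55 and 32 counts in libraries 9, 10 and 12, and Ifi44 at 9.24% (21 counts, against 391, 345 and 266). Xaf1 read 1.81 CPM in library 11, against 18.2, 15.0 and 14.9 CPM in libraries 9, 10 and 12, which is 11.3%. Oasl2 read 5.60 CPM, against 44.9, 37.6 and 37.6 CPM, which is 14.0%. Dhx58 stood at 14.9%, Gbp7 at 15.0%, Samd9l at 15.5% and Parp14 at 15.7%. At the other end were Ifi27 at 106%, Bst2 at 90.4%, Rsad2 at 86.2%, Stat2 at 85.2% and Ddx58 at 83.8%. By role, the median was lowest for the IFIT genes, at 20.7%, and highest for Isg15, Usp18 and Herc6, at 55.8%.

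**Figure D5:**
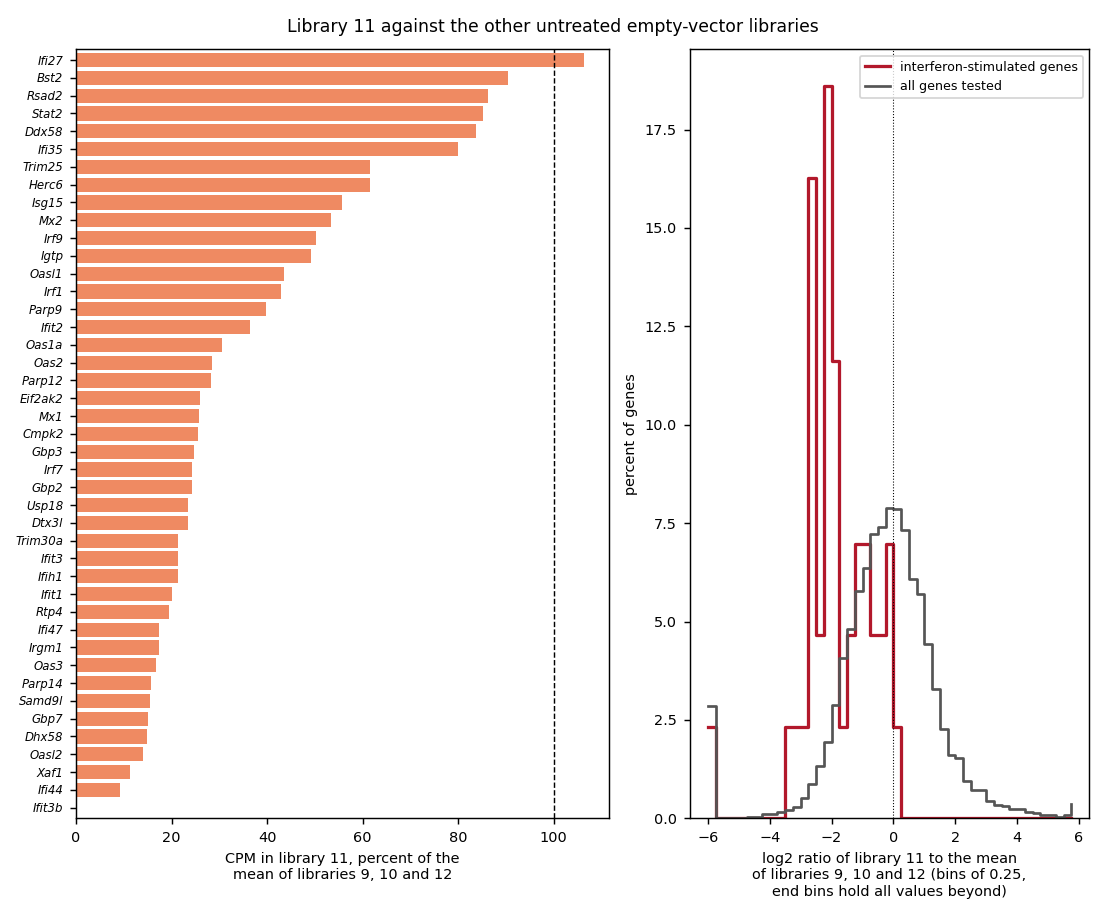
Left, CPM of each gene in library 11 as a percentage of the mean of libraries 9, 10 and 12, with a dashed line at 100%. Right, share of genes by log2 ratio of library 11 to that mean, for the set (red) and all genes (grey); Ifi27 alone passes 100%, and most of the red curve lies left of -1 (32 of 43 genes).

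Other genes of the pathway were low, unchanged or high in library 11, and those named here are a selection. Ifngr1, a receptor chain for interferon-gamma, stood at 30.3% of the mean of libraries 9, 10 and 12, and Tlr3, the endosomal RNA receptor, at 17.1%. The receptor chains Ifnar1 and Ifnar2 stood at 100% and 93.5%. Jak1 stood at 172% and Socs3, a brake on the pathway, at 378%. The deciles over all genes were 27.5% and 290%, so Ifngr1 and Jak1 lay within them. Interferon transcripts were found at 3 counts of Ifnb1, 4 of Ifnk and 2 of Ifng in library 11, and at 0 in libraries 9, 10 and 12. Such low counts were not confined to library 11. Ifnb1 had 1 count in library 3 and 2 in library 4, and Ifnk had 3 in library 15 and 1 in library 16. The scaling factor of library 11 was 0.721, against 0.986 to 1.04 in the other 15 libraries. The part of the other features of library 11 (Epcam, Cdh1, Clic4) in its low level of interferon-stimulated genes was not tested.

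Upstream of the set, the interferon genes that the table holds were all but absent. Of 13 listed ligands 3 (Ifnb1, Ifnk and Ifng) were in the table, with 16 counts over all libraries, and 0 passed the filter. The other ligands were not in the table, so their level is not known. The counts of calls in the lists that follow stand beside 22.1% higher and 20% lower over all genes under H2O2 and 29% and 24.3% untreated, or 36.6% and 37.2%, and 37% and 37.3%, without library 11.

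Of the 5 receptor chains tested, Ifngr2 was higher with the empty vector by 0.61 under H2O2 and 0.47 untreated (edgeR adjusted p = 0.000403 and 0.00273; 0.59 untreated without library 11) and Ifnar2 by 0.15 under H2O2 (edgeR adjusted p = 0.0458), and 0 were called lower with 16 libraries. Without library 11, 3 were called higher and 1 lower in both comparisons. The lower one was Il10rb, a chain of the lambda interferon receptor, at -0.38 under H2O2 and -0.32 untreated (edgeR adjusted p = 7.4e-09 and 2.74e-07).

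Of 4 kinases and STATs tested outside the set, 2 were higher in both comparisons. The log2 changes were 0.63 and 0.93 for Stat3, a factor that also serves other cytokines, and 0.37 and 0.75 for Jak1, while Jak2 was lower untreated, at -0.25 (edgeR adjusted p = 0.0391). Without library 11 the untreated changes were 0.79 for Stat3, 0.51 for Jak1 and -0.14 for Jak2, and 3 genes were called higher and 1, Jak2, lower in both comparisons.

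Of 4 tested interferon regulatory factors outside the set, 2 were higher in both comparisons and 0 lower, and without library 11 there were 3 higher under H2O2 and 2 untreated, with 0 lower. Irf8, a factor of myeloid cells, read 33.5, 34.5, 38.5 and 34.2 CPM in empty-vector cells with H2O2, against 5.27, 5.99, 5.44 and 4.93 CPM in lentivirus cells with H2O2. Its groups were far apart, library 11 (34.96 CPM) included, and its log2 change was 2.70 in both comparisons (edgeR adjusted p = 5.33e-11 and 5.62e-11). Irf3, which starts interferon transcription after sensing, changed by 0.66 and 0.54 (edgeR adjusted p = 1.02e-05 and 6.45e-05). Without library 11 the untreated changes were 2.72 for Irf8 and 0.62 for Irf3.

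Of 14 tested genes of nucleic acid sensing, 5 were higher and 2 lower with the empty vector under H2O2, and 6 were higher and 3 lower untreated. Without library 11 these counts were 9 and 5, which left 0 uncalled, and 8 and 3. Cgas, the DNA sensor, was higher by 1.02 and 0.93 (edgeR adjusted p = 2.36e-05 and 5.3e-05), and Tmem173 (STING, its partner) by 0.49 and 0.50 (edgeR adjusted p = 5.78e-06 and 5.07e-06). Trex1, which degrades cytosolic DNA, was lower, at -0.76 and -0.79 (edgeR adjusted p = 0.000416 and 0.000271), and so was Samhd1, which degrades nucleotides, at -0.43 and -0.39 (edgeR adjusted p = 2.22e-05 and 4.78e-05). The adaptors Ticam1 (0.83 and 0.78) and Traf3 (0.41 and 0.43) were higher in both, the kinase Ikbke under H2O2 (0.55), and Myd88 (0.53) and Tbk1 (0.43) untreated, where Tlr3 (-1.12) was lower. Without library 11 the untreated changes were 0.24 for Myd88, 0.13 for Tbk1 and -0.79 for Tlr3, and 1.05 for Cgas, 0.53 for Tmem173, -0.65 for Trex1, -0.34 for Samhd1, 0.97 for Ticam1 and 0.54 for Traf3.

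Of 10 negative regulators, Ptpn1 was higher (0.48 and 0.67) and Irf2bp2 lower (-0.66 and -0.59) in both comparisons, and Socs3 (1.28), Pias1 (0.30) and Trim24 (0.42) were higher untreated, at 0.52, 0.22 and 0.15 without library 11, where Ptpn1 had 0.54 and Irf2bp2 -0.63. Over the list, 1 gene was called higher and 1 lower under H2O2 and 4 and 1 untreated, or 5 and 2 in each comparison without library 11. In the H2O2 comparisons edgeR called 0 genes of these lists with either vector.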

How the data were processed

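RNA of 6DT1 cells was extracted with a Qiagen RNeasy kit and sequenced on Illumina libraries, per the labels' protocols. The submitters' processing notes name cutadapt, STAR, RSEM and the build mm10. Of versions, annotation and strandedness, none is stated in the sources used here. The deposited count table of the authors holds whole numbers for 25745 genes. The deposited FPKM values, scaled by the authors to length and depth, cover 25372 genes. Totals ran from 47089156 to 61945199 counts, and every pair of libraries differed by more than sampling noise (chi-square per degree of freedom at least 4.97).

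Groups came from the sample titles. edgeR 4.0.16 (R 4.3.3) fitted all 16 libraries together, with robust quasi-likelihood, 1 coefficient for each group, TMM factors and filterByExpr (minimum count 10), and p-values were adjusted by Benjamini-Hochberg over all 14445 genes tested (14602 without library 11). Genes with an adjusted p under 0.05 were called. Standard errors come from the log2 change over the root of F. Comparisons were of the vectors (empty minus lentivirus) with and without H2O2, of H2O2 with no treatment for each vector, and of the 2 responses with each other. A gene's groups do not overlap where every library of one lies beyond every library of the other. The script was tested on simulated data with an even spread and no library that stands apart, and only for the vector comparison under H2O2. That test does not cover the wider spread with library 11 or the H2O2 comparisons. Alternatives were DESeq2 1.42.0, RLE size factors, no filter, the compared groups alone, and leaving out each library in turn. Motifs were searched in RefSeq promoter windows (GRCm38.p6), and positions are those of GENCODE vM21, by symbol.

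The members, gene lists, roles and rules were chosen with earlier results of these data known. A few genes of these lists are not reported here, and the counts leave them out. Values are given in full for the signalling members and, by rule, for the 6 genes that changed most in each vector comparison (called, average log2 CPM 2 or more), the 4 of smallest p per H2O2 comparison, and the extremes of library 11. Of the members given with every value or a mean and SD, Ifih1, Parp14, Usp18, Gbp2, Parp9, Samd9l, Ifit3 and Ifit3b fall outside that rule and were chosen after their values were seen.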

Additional observations from a re-analysis of the deposited data

Results flagged for a closer look

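In 18 of 172 combinations of gene and group, the gap between the highest or lowest library and the next one took more of the group's range than Dixon's 95% critical value for 4 samples allows. Chance flags about 1 in 20 groups. The 18 are 10.5% of the combinations, and over all 14445 genes tested 15.5% were flagged in the same way. Library 11 was the lowest of the untreated empty-vector libraries in 13 of the 18. In that group 30.2% of the set was flagged, against 45.9% of all genes, and library 11 was the flagged low value for 19.7% of all genes. Its level was 17.5 CPM for Irf1, 3.29 for Ifih1, 5.96 for Dhx58, 130 for Trim25, 19.0 for Oas3, 19.98 for Gbp2, 6.38 for Gbp7, 4.33 for Irgm1, 26.2 for Parp9, 14.5 for Parp12, 6.45 for Parp14, 14.9 for Dtx3l and 6.89 CPM for Samd9l. The next lowest library of that group read 39.8 CPM for Irf1, 36.7 CPM for Dhx58 and 78.3 CPM for Gbp2.

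The other 5 single libraries were closer to their groups. Library 16, treated with the empty vector, was highest for Gbp2 (80.8 CPM, next 77.6) and Parp12 (51.4 CPM, next 47.4). Library 5, treated with the lentivirus, was lowest for Ifit3b (2.22 CPM, next 2.58) and Cmpk2 (13.8 CPM, next 14.2). Library 4, untreated with the lentivirus, was highest for Oas1a (14.5 CPM, next 13.0).

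The response of Parp14 to H2O2 differed between the vectors by -0.35 on the log2 scale without library 11 (edgeR adjusted p = 0.0477), and with all 16 libraries the difference was -0.02 (edgeR adjusted p = 0.992).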

How the results depend on the processing

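Without library 11, edgeR called 14 genes of the set higher and 22 lower with the empty vector under H2O2 (11 and 7 with all libraries), 18 and 21 untreated (9 and 12), and 1 lower in the difference of responses (0). DESeq2 with all libraries gave 11 higher and 10 lower under H2O2 (23.5% and 22.6% of all genes), and 11 and 13 untreated (29.5% and 26.2%). A fit of the compared groups alone gave 14 higher and 23 lower under H2O2, and 7 higher and 4 lower untreated, where Irf1, Parp9, Gbp2, Usp18, Oas3, Oas2, Samd9l, Dtx3l, Oas1a and Ifit3b lost their calls. The combined alternatives were chosen after seeing the data. The compared groups alone without library 11 gave 17 higher and 20 lower untreated, and 1 lower for H2O2 in empty-vector cells. DESeq2 without library 11 gave 14 higher and 22 lower under H2O2 (37.3% and 36.3% of all genes), and 19 higher and 21 lower untreated (37.4% and 36.7%). It also gave 3 lower for H2O2 in empty-vector cells (1.34%) and 3 lower (Trim25, Parp14 and Dtx3l) in the difference (2.81%). Leaving out libraries 11 and 14 in edgeR gave 1 lower in the difference. Shares over all genes are not given for the other alternatives. The cause of these changes was not tested beyond the libraries left out.

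Over the 16 fits that each left out 1 library, 8 to 14 were higher and 3 to 22 lower under H2O2 (3 without library 13, 4 without library 14), 7 to 18 higher and 9 to 21 lower untreated, and 0 to 1 lower in the difference. The upper ends came without library 11, where the shares of all genes rose as well. Under H2O2 these went from 22.1% to 36.6% higher and from 20% to 37.2% lower. Untreated, they went from 29% to 37% higher and from 24.3% to 37.3% lower. Shares over all genes in the other fits are not given. Counts in the H2O2 comparisons were 0. The medians ran from -0.25 to -0.17 and from -0.37 to -0.11 in the vector comparisons, from -0.12 to 0.30 for H2O2 in empty-vector cells, from 0.01 to 0.04 in lentivirus cells and from -0.15 to 0.28 for the difference; -0.12 and -0.15 are the values without library 11 and 0.30 and 0.28 those without library 9. Without a filter Ifi35, Irf1, Parp9 and Stat2 lost their calls under H2O2, and Oas2 and Dtx3l untreated. RLE size factors ended 0 calls and moved the median of all genes by at most 0.02. The median level in library 11 was 27.1% with RLE factors and 17.8% without scaling factors, with 89.5% the TMM value over all genes against 94.9% and 62.3%. No paired analysis was possible because no library number is shared by groups.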
